A study of Rattus norvegicus with 6 samples.

Results

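The unfolded protein response and the integrated stress response were read from 10 genes in the livers of rats with CCl4-induced fibrosis. The 10 genes (Hspa5, Hsp90b1, Pdia4, Dnajb9, Herpud1, Xbp1, Atf4, Ddit3, Trib3 and Asns) were taken by their symbols from a table of 19616 genes. Each symbol matched 1 entry of the table, and all 10 genes passed the filter on low values that left 14864 genes for testing.

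Proteins for secretion and for membranes fold in the endoplasmic reticulum (ER), and unfolded proteins there engage the sensors IRE1 (Ern1), PERK (Eif2ak3) and ATF6, which raise the transcription of chaperones and of the degradation machinery. PERK and the other eIF2 kinases, which sense lack of amino acids, double-stranded RNA or haem deficiency, phosphorylate eIF2, and this integrated stress response lowers most translation while ATF4 is made in greater amounts and turns on genes of amino acid supply. Hepatocytes secrete most plasma proteins and therefore carry a large ER, and CCl4 is turned into reactive radicals by cytochrome P450 enzymes in the hepatocyte ER.

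RNA came from whole livers of 6 male SD rats, with 1 library per rat. The FL group (rats FL2, FL5 and FL12) had received CCl4 mixed 1:1 with olive oil over 5 weeks, with 2 intraperitoneal injections of 2 mL/kg in each week. The CL group (CL5, CL6 and CL7) had received an equal volume of olive oil on its own. Ribosomal RNA had been removed from the total RNA, and expression was given as FPKM, the fragments of a gene per kilobase of transcript and scaled to the number of mapped fragments. The age of the rats was not given in the sources used here. The number of mapped reads of each library is unknown here, and steps in the low values of 114 U6 small nuclear RNA genes put the relative depth at 1 in CL5, 0.656 in CL6, 0.84 in CL7, 0.677 in FL2, 0.75 in FL5 and 0.677 in FL12. The tissue carried its defining markers, since albumin (Alb) stood at 31431 to 33392 FPKM in the CL rats and at 24149 to 25209 FPKM in the FL rats. In RNA from whole liver, fewer cells of a type and less RNA per cell cannot be told apart.

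The 10 genes gave few calls between the fibrotic and the control livers. Of the 10 genes, 0 were higher and 1 (Dnajb9) was lower in the FL group at an adjusted p under 0.05 in limma with Benjamini-Hochberg (BH) adjustment over all genes tested, against 16.9% of all genes tested called higher and 1.94% called lower. At an unadjusted p under 0.05, limma gave 1 gene higher (Asns) and 1 lower (Dnajb9), against 31.5% and 4.04% of all genes tested. Differentially expressed genes (DEGs), which also had to change at least 2-fold, numbered 0 higher and 0 lower among the 10, against 9.29% and 0.935% of all genes tested. The values of all 3 FL rats lay above those of all 3 CL rats in 0 of the 10 genes and below them in 1, against 35.7% and 4.78% of all genes tested. The FL rats also differed from each other. Hspa5, Hsp90b1 and Pdia4 were above every CL rat in FL2 alone, and Trib3 and Asns were highest in FL12.

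Changes are log2 differences of FPKM + 0.1 between the group means (FL minus CL), a scale that understates the change of low genes. The median difference of all genes tested was 0.29, and it was 0.08 with median scaling of the rats and -0.04 with quantile normalization. Relative to that median, 7 of the 10 genes lay below and 3 (Asns, Ddit3 and Trib3) above, but 4 lay below with quantile normalization, 5 without FL5, 6 with a pseudocount of 1, 6 without FL12 and 8 without CL7. The median of the 10 genes was 0.15, or -0.14 relative to all genes, and with quantile normalization the sign turned, to 0.11 relative to all genes.

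**Figure D1:**
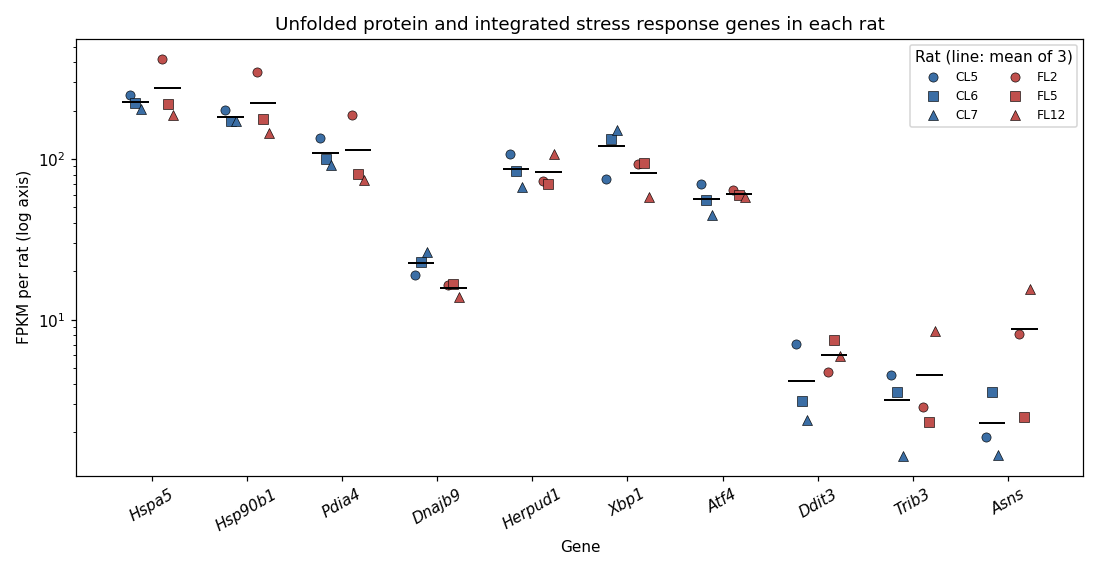
FPKM of the 10 stress response genes in each of the 6 rats on a log axis, with CL rats in blue, FL rats in red and a line at the mean of the 3 rats of each group. Hspa5, Hsp90b1 and Pdia4 were highest in FL2, Trib3 and Asns were highest in FL12, and the groups overlapped in every gene except Dnajb9.

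Hspa5 (BiP, ENSRNOG00000018294, chromosome 3) is the main Hsp70 chaperone of the ER and holds the stress sensors inactive when it is bound to them. It stood at 251, 224 and 205 FPKM (CL5, CL6, CL7) against 421, 219 and 188 FPKM (FL2, FL5, FL12). FL2 alone lay above the CL rats, FL5 lay among them and FL12 below all of them, so the groups overlapped. Hsp90b1 (GRP94, ENSRNOG00000026963, chromosome 7), the Hsp90 chaperone of the ER, stood at 202, 174 and 172 FPKM in the CL rats and at 347, 176 and 146 FPKM (FL2, FL5, FL12). Its order of rats was that of Hspa5 except that CL6 and FL5 changed places. Pdia4 (ERp72, ENSRNOG00000006228, chromosome 4), a protein disulfide isomerase, stood at 136, 99.6 and 91.6 FPKM in the CL rats and at 189, 80.4 and 73.9 FPKM (FL2, FL5, FL12). FL2 was again the highest rat, whereas FL5 and FL12 were lower than every CL rat.

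The difference between the groups was small beside this spread. On the log2 scale FL2 differed from the CL mean by 0.90 in Hspa5, 0.93 in Hsp90b1 and 0.81 in Pdia4, while FL12 differed by -0.27, -0.32 and -0.54. Hspa5 differed by 0.20 between the groups (SE 0.29, 95% interval -0.48 to 0.87, limma with BH-adjusted p = 0.656), Hsp90b1 by 0.19 (SE 0.30, adjusted p = 0.681) and Pdia4 by -0.05 (SE 0.35, adjusted p = 0.934). Without FL2 the differences of Hspa5 and Hsp90b1 changed sign, to -0.15 and -0.18, as they did with median scaling, to -0.03 and -0.04. The difference of Pdia4 became positive without CL5 (0.12), without FL5 (0.14) and without FL12 (0.20), and it was -0.48 without FL2.

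Xbp1 (ENSRNOG00000010298, chromosome 14) encodes the transcription factor whose mRNA IRE1 splices, and the FPKM of the gene does not separate the spliced from the unspliced form. It stood at 75.5, 134 and 151 FPKM (CL5, CL6, CL7) against 92.6, 94.1 and 58.1 FPKM (FL2, FL5, FL12). CL5 fell within the range of the FL rats, so the groups overlapped although CL6 and CL7 were higher than every FL rat. The difference was -0.53 (SE 0.29, 95% interval -1.21 to 0.15, limma with BH-adjusted p = 0.230), or -0.82 relative to the median of all genes. It kept its sign under every alternative, from -0.83 without CL5 to -0.30 without FL12.

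Dnajb9 (ERdj4, ENSRNOG00000004006, chromosome 6), an ER co-chaperone that restrains IRE1 and is a known target of XBP1, stood at 18.9, 22.7 and 26.3 FPKM (CL5, CL6, CL7) against 16.6, 16.7 and 13.8 FPKM (FL2, FL5, FL12). Every FL rat was lower than every CL rat, which makes it the only one of the 10 genes without overlap. Dnajb9 was 1.43-fold lower in the FL group (log2 difference -0.52, SE 0.15, 95% interval -0.87 to -0.17, limma with BH-adjusted p = 0.0470, lower in 3 of 3 FL rats). The call rested on the setting. With limma and BH adjustment the adjusted p was 0.0505 with a pseudocount of 1, 0.0915 without the filter on low values and 0.0936 without trend. It was 0.117 without CL6, 0.156 without CL7, 0.0555 without FL2, 0.0958 without FL5 and 0.126 without FL12. The range over the alternatives was 0.0293 (median scaling) to 0.156, and the difference stayed negative in each, from -0.74 to -0.41.

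Herpud1 (ENSRNOG00000018796, chromosome 19) encodes an ER membrane protein of ER-associated degradation. Its FPKM was 108, 83.8 and 66.7 in CL5, CL6 and CL7, and 73.1, 70.5 and 107 in FL2, FL5 and FL12. FL12 was close to CL5, the highest rat, and FL2 and FL5 lay within the CL range, so Herpud1 did not follow the chaperones, which were lowest in FL12. The groups differed by -0.04 (SE 0.22, limma with BH-adjusted p = 0.908), and the sign changed without CL5 (0.13), without FL2 (0.04) and without FL5 (0.07).

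Atf4 (ENSRNOG00000017801, chromosome 7) encodes the central transcription factor of the integrated stress response, which is controlled mainly at translation, a step that RNA levels do not show. It stood at 69.7, 55.4 and 45.1 FPKM (CL5, CL6, CL7) against 63.9, 60.0 and 57.7 FPKM (FL2, FL5, FL12). All 3 FL rats lay inside the CL range and close to each other. The difference was 0.11 (SE 0.17, limma with BH-adjusted p = 0.648), which is -0.17 relative to the median of all genes, and the sign changed with median scaling (-0.11) and without CL7 (-0.04).

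Ddit3 (CHOP, ENSRNOG00000006789, chromosome 7), a transcription factor induced by ATF4 and linked to cell death under lasting ER stress, stood at 7.05, 3.12 and 2.36 FPKM (CL5, CL6, CL7) against 4.70, 7.51 and 5.95 FPKM (FL2, FL5, FL12). CL5 was the second highest of the 6 rats, and the other CL rats were lower than every FL rat. The difference was 0.65 (SE 0.37, 95% interval -0.20 to 1.51, limma with BH-adjusted p = 0.243). Without CL5 it was 1.10 with an adjusted p of 0.0368 from the same limma test with BH adjustment, and over all alternatives the adjusted p ran from 0.0368 to 0.582.

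Trib3 (ENSRNOG00000007319, chromosome 3), a pseudokinase induced by ATF4 and CHOP that feeds back on them, stood at 4.52, 3.53 and 1.42 FPKM (CL5, CL6, CL7) against 2.87, 2.31 and 8.50 FPKM (FL2, FL5, FL12). FL12 was the highest rat, while FL2 and FL5 lay within the CL range. The difference of 0.42 (SE 0.54, limma with BH-adjusted p = 0.606) rested on FL12, since it was -0.14 without FL12, and it was -0.05 without CL7.

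Asns (ENSRNOG00000007546, chromosome 4), the enzyme that makes asparagine and a standard target of ATF4 when amino acids are short, stood at 1.86, 3.57 and 1.43 FPKM (CL5, CL6, CL7) against 8.19, 2.47 and 15.6 FPKM (FL2, FL5, FL12). FL2 and FL12 were higher than every CL rat, and FL5 lay below CL6. Asns had the largest difference of the 10 genes, 1.64 (SE 0.62, 95% interval 0.22 to 3.06), with a limma BH-adjusted p of 0.0992. Without FL5 the difference was 2.36 with a BH-adjusted p of 0.0268 in limma, and the adjusted p ran from 0.0268 to 0.268 over the alternatives.

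**Figure D2:**
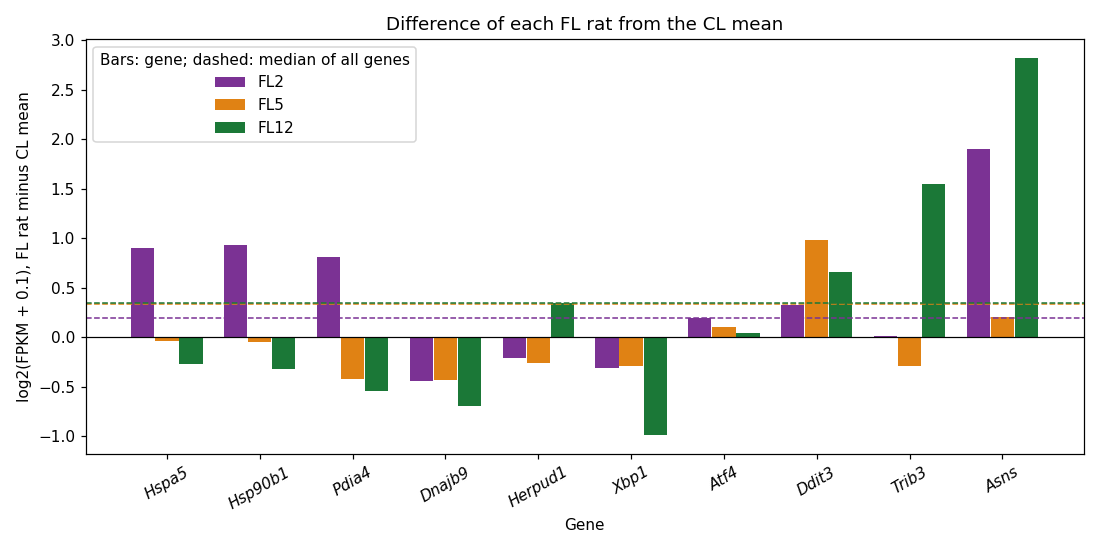
Difference of each FL rat from the mean of the 3 CL rats in log2(FPKM + 0.1), with bars for the 10 stress response genes and dashed lines at the median of all genes tested in that rat (0.20 in FL2, 0.33 in FL5 and 0.35 in FL12). Hspa5, Hsp90b1 and Pdia4 stood 0.81 to 0.93 above the CL mean in FL2 only, Trib3 stood 1.55 above it in FL12, and Asns stood 1.90 above it in FL2 and 2.82 in FL12.

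The level of the 10 genes spanned a wide range in the CL livers, and FPKM, being per length, can be compared between genes. Hspa5 was the most abundant (227 ± 23.5 FPKM, mean ± SD, n = 3), followed by Hsp90b1 (183 ± 16.8), Xbp1 (120 ± 39.6), Pdia4 (109 ± 23.8), Herpud1 (86.2 ± 20.7), Atf4 (56.7 ± 12.3), Dnajb9 (22.7 ± 3.70), Ddit3 (4.18 ± 2.52), Trib3 (3.16 ± 1.58) and Asns (2.29 ± 1.13). Among neighbours in this order, the rats overlapped between Xbp1 and Pdia4, Pdia4 and Herpud1, Herpud1 and Atf4, Ddit3 and Trib3, and Trib3 and Asns. The chaperones and transducers were thus far more abundant than the targets Ddit3, Trib3 and Asns in livers that had received olive oil only. In the FL group the order was Hspa5 (276 ± 127 FPKM, n = 3), Hsp90b1 (223 ± 109), Pdia4 (114 ± 64.7), Herpud1 (83.6 ± 20.5), Xbp1 (81.6 ± 20.3), Atf4 (60.5 ± 3.16), Dnajb9 (15.7 ± 1.61), Asns (8.76 ± 6.59), Ddit3 (6.05 ± 1.41) and Trib3 (4.56 ± 3.42). Only Atf4 and Dnajb9 were neighbours without overlap there. Xbp1 went from place 3 to place 5 and Asns from place 10 to place 8.

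The spread over rats was itself unequal. The highest FL rat exceeded the lowest by 2.24-fold in Hspa5, 2.38-fold in Hsp90b1, 2.56-fold in Pdia4, 3.68-fold in Trib3 and 6.32-fold in Asns, against 1.11-fold in Atf4 and 1.21-fold in Dnajb9. In the CL group the same ratio was 1.23 for Hspa5, 1.17 for Hsp90b1 and 1.54 for Atf4, and it was highest in Trib3 (3.18) and Ddit3 (2.99).

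Hspa5 and Hsp90b1 were the most alike of the 45 pairs among the 10 genes. Likeness was measured as the root mean square difference of the log2 profiles, centred per gene over the 6 rats, and was 0.0418 for this pair. The next pairs were Hsp90b1 with Pdia4 (0.172), Hspa5 with Pdia4 (0.177), Xbp1 with Dnajb9 (0.229) and Atf4 with Herpud1 (0.241). Asns was the least like the others, with 1.52 to Xbp1 and 1.43 to Dnajb9.

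Among the 10535 genes whose mean over the 6 rats reached 1 FPKM, the gene most like Hspa5 over the 6 rats was Hsp90b1, followed by Mturn (0.0587) and Ifi35 (0.0695). Mturn stood at 4.92 FPKM in FL2 and between 2.35 and 2.86 FPKM in the other rats. Atf4 was most like Dolpp1 (0.0469), Psmb4 (0.0499) and Arhgef10l (0.0567). Ddit3 was most like Klf6 (0.106), Stxbp4 (0.215) and Msmo1 (0.221), a looser likeness than those of Hspa5 and Atf4. Klf6, a zinc finger transcription factor, stood at 2.75, 1.08 and 0.98 FPKM in the CL rats and at 1.87, 3.34 and 2.21 FPKM (FL2, FL5, FL12), with CL5 high as in Ddit3.

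Around the 10 genes, 134 further genes of the pathway were listed in 8 lists, and 130 of them were found and 128 tested. The expression of Derl3, Sec61g, Srprb and Bbc3 was not analysed here. In limma with BH adjustment, 20 of the 128 were higher and 1 was lower at an adjusted p under 0.05, against 16.9% and 1.94% of all genes tested, and 8 were DEGs with higher and 0 with lower expression, against 9.29% and 0.935%. At an unadjusted p under 0.05 the counts were 42 and 3, against 31.5% and 4.04% of all genes tested. With median scaling 6 were higher and 3 lower, and with quantile normalization 4 and 2, while all genes went from 2518 higher and 288 lower to 1302 and 532 and to 778 and 536. Of the 21 called genes, 4 kept the call without CL7, 8 without CL6, 8 without FL5, 9 without CL5, 15 without FL12 and 16 without FL2. Kdelr3 and Pck2 kept it under every alternative.

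**Figure D3:**
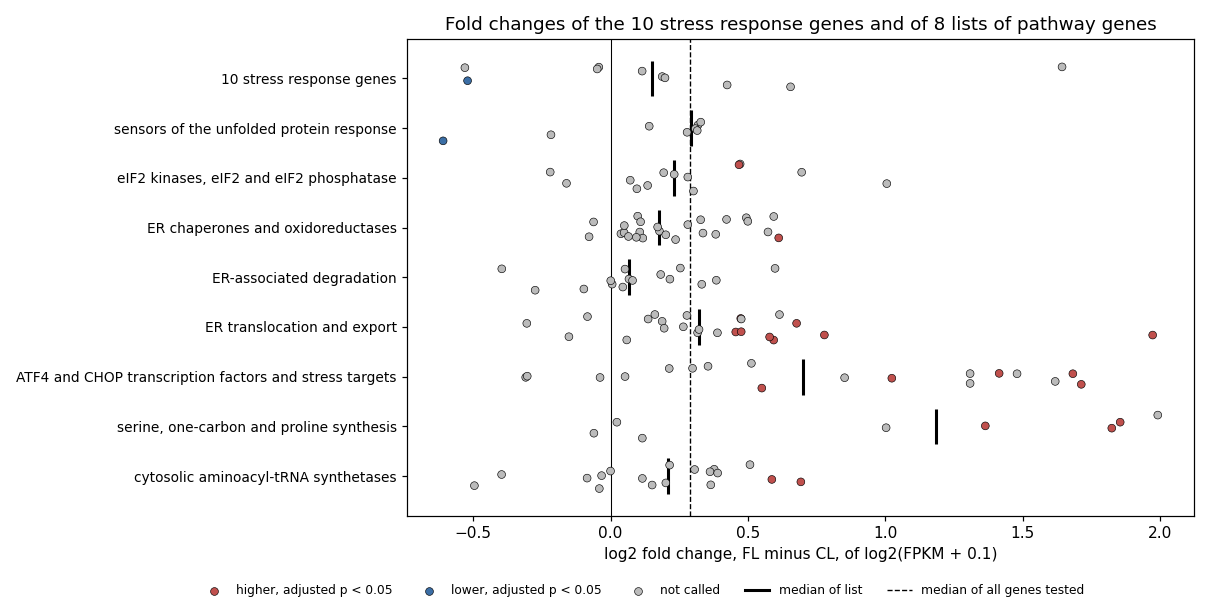
Log2 fold changes (FL minus CL) of the 10 stress response genes and of the tested genes of 8 pathway lists, with 1 point per gene, coloured by the call at an adjusted p under 0.05 (limma with BH adjustment), a thick line at the median of each list and a dashed line at the median of all genes tested (0.29). The list of serine, one-carbon and proline synthesis (median 1.18) lay to the right of the dashed line. So did that of ATF4 and CHOP transcription factors and stress targets (median 0.70), and ER-associated degradation (median 0.07) lay to its left.

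The 8 sensors and processing proteases had a median of 0.29, equal to that of all genes. Of them, 0 were higher and 1 was lower, against 16.9% and 1.94% of all genes tested. The lower gene was Ern1, the IRE1 kinase and nuclease. It stood at 12.36, 10.02 and 8.86 FPKM (CL5, CL6, CL7) against 6.87, 6.11 and 7.25 FPKM (FL2, FL5, FL12). Each FL rat was lower than each CL rat. Ern1 decreased with a log2 difference of -0.61 (SE 0.15, limma with BH-adjusted p = 0.0301, lower in 3 of 3 FL rats). The adjusted p ran from 0.0134 to 0.1002 over the alternatives, and the call was lost without the filter (0.0637), without trend (0.0620), without CL5 (0.0828), without CL6 (0.0750), without FL5 (0.1002) and without FL12 (0.0535). Its difference stayed negative under every alternative. The most abundant gene of the list was Creb3l3, a liver-enriched ER membrane transcription factor, with 70.2 to 101 FPKM in the CL rats and 98.6 to 101 FPKM in the FL rats (0.32, limma with BH-adjusted p = 0.193). The transcripts of PERK (Eif2ak3) were lower in every FL rat (4.42 to 5.31 FPKM) than in every CL rat (5.38 to 5.67 FPKM), and those of Atf6 higher (19.8 to 22.7 against 15.6 to 17.6 FPKM), without passing the test (limma with BH-adjusted p = 0.259 and 0.0834). With quantile normalization Eif2ak3 was lower (adjusted p = 0.0444 in limma with BH adjustment, in a range of 0.0444 to 0.464), which made 2 lower genes in the list. For Atf6 the difference ran from 0.09 to 0.36 over the alternatives, and the limma BH-adjusted p from 0.0705 to 0.616. With median scaling and with quantile normalization, 0 genes of the list had all FL rats above all CL rats. Eif2ak3 and Atf6 were named after their values were seen.

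The 13 genes for eIF2, its kinases, its exchange factor and the phosphatase subunits had a median of 0.23. Of these 13, 1 was higher and 0 lower, against 16.9% and 1.94% of all genes tested. With median scaling 0 were higher and 1 (Eif2ak1) lower, and with quantile normalization 0 and 0. Eif2s3, the gamma subunit of eIF2, stood at 8.40 to 8.78 FPKM in the CL rats and at 11.5 to 12.5 FPKM in the FL rats (0.47, SE 0.10, limma with BH-adjusted p = 0.0209, range 0.0189 to 0.176 over the alternatives, higher in 3 of 3 FL rats). The gene has a near-identical copy on the Y chromosome, so its reads may be shared in male rats. Its call was lost with median scaling (0.162) and quantile normalization (0.176), and without CL5 (0.0579), CL6 (0.0710), CL7 (0.0692), FL5 (0.0570) or FL12 (0.0568). Eif2s1, the alpha subunit that the stress kinases phosphorylate, had the highest mean of the list over all 6 rats, but in the CL rats Eif2ak1 and Ppp1r15b had higher means. It stood at 16.7 to 18.7 FPKM in the CL rats and 20.3 to 24.9 FPKM in the FL rats (0.28, limma with BH-adjusted p = 0.143). Ppp1r15a (GADD34), the stress-induced subunit that reverses this phosphorylation, was named after its values were seen. It stood at 1.94, 3.38 and 2.18 FPKM (CL5, CL6, CL7) against 5.28, 7.38 and 3.15 FPKM (FL2, FL5, FL12). FL12 lay below CL6, so the groups overlapped (limma with BH-adjusted p = 0.0652, and 0.0305 without FL12, within a range of 0.0305 to 0.262).

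Among the 25 further ER chaperones and oxidoreductases, FL2 was the highest FL rat in 22 of the 25 genes and higher than every CL rat in 24, against 22.6% and 49.2% of all genes tested. FL12 was lower than every CL rat in 14 of them, against 13.7% of all genes. FL5 was higher than every CL rat in 11 (60.9% of all genes) and FL12 in 6 (62.5%), and with median scaling in 5 and 1. All FL rats lay above all CL rats in 6 (35.7% of all genes), in 0 with median scaling and in 3 with quantile normalization. The median difference from the CL mean was 0.69 in FL2, 0.04 in FL5 and -0.25 in FL12. With median scaling it was -0.20 in FL5 and -0.52 in FL12, and with quantile normalization 0.04 and -0.34. FL2 was highest in 23 genes with median scaling and in 21 with quantile normalization, with medians of 0.54 and 0.61, which were computed after the values had been seen. Calr (calreticulin) was the most abundant, at 566, 614 and 546 FPKM (CL5, CL6, CL7) against 985, 585 and 404 FPKM (FL2, FL5, FL12). It spanned the CL range on both sides (0.10, SE 0.32, limma with BH-adjusted p = 0.846), and its difference was -0.13 with median scaling and -0.24 without FL2. The largest differences in FL2 were those of Creld2 and Sdf2l1, named after their values were seen. Creld2 stood at 39.9 FPKM in FL2 and at 8.31 to 11.6 FPKM in the other rats, and Sdf2l1 at 44.3 FPKM in FL2 and at 7.54 to 14.1 FPKM in the others.

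The 25 chaperone genes had a median of 0.18 between the groups. Of them, 1 was higher and 0 were lower, against 16.9% and 1.94% of all genes tested. Txndc5, a disulfide isomerase of the ER, stood at 22.7, 19.0 and 19.4 FPKM (CL5, CL6, CL7) against 35.6, 31.5 and 26.8 FPKM (FL2, FL5, FL12). All FL rats were higher than all CL rats (0.61, SE 0.14, limma with BH-adjusted p = 0.0223, range 0.0214 to 0.147). The call was lost with median scaling (0.147), quantile normalization (0.0783), without the filter (0.0525), without trend (0.0543), without CL6 (0.0759), without CL7 (0.0850) and without FL5 (0.0740).

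Of the 8 plasma cell-like markers, whose cells are rich in ER, 7 were tested. In limma with BH adjustment 2 (Igj and Prdm1) were higher in the FL group, against 16.9% of all genes tested. Igj kept the call under every alternative and Prdm1 did not. The summed level of the 8 markers was 27.7, 22.0 and 24.4 FPKM (CL5, CL6, CL7) against 70.1, 50.2 and 47.7 FPKM (FL2, FL5, FL12). The most abundant was Igj, at 52.8 FPKM in FL2, 30.4 in FL5 and 27.2 in FL12, and at 5.22 to 10.6 FPKM in CL5, CL6 and CL7, while Tnfrsf17 was listed at 0 in CL6, CL7 and FL12. Igj made up most of the sum in the FL rats, and Sdc1, which was not called (-0.04), most of it in the CL rats (15.6 to 18.0 FPKM). Among the 7 tested markers FL2 was the highest FL rat in 3, FL5 in 3 and FL12 in 1. The part of these cells in the levels of the chaperones was not tested.

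ER-associated degradation, with 15 genes tested, had a median of 0.07. At an unadjusted p under 0.05 in limma, 3 were higher and 1 lower, against 31.5% and 4.04% of all genes tested. With BH adjustment 0 were higher and 0 lower, against 16.9% and 1.94%. With median scaling 1 was lower (Ubxn4), and with quantile normalization 0. FL2 was again the highest FL rat, in 11 of 15. The most abundant gene was Vcp, the ATPase that pulls proteins out of the ER membrane, at 62.2 to 85.1 FPKM in the CL rats and 69.1 to 76.7 FPKM in the FL rats (0.00, limma with BH-adjusted p = 0.998). Its difference was -0.02 without CL6, -0.10 without CL7 and -0.05 without FL5. Vimp, an adaptor of Vcp at the ER membrane, had the lowest adjusted p (0.38, limma with BH-adjusted p = 0.0595), at 10.5 to 12.6 FPKM in the CL rats and 14.2 to 16.4 FPKM in the FL rats.

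Of 23 genes of ER translocation and export, 8 were higher and 0 lower (limma with BH adjustment), against 16.9% and 1.94% of all genes tested, with a median of 0.32. With median scaling 1 of the 23 was higher and with quantile normalization 3. In 13 genes all FL rats lay above all CL rats, against 35.7% of all genes. With median scaling they did in 4 (22.3% of all genes), and with quantile normalization in 8 (15.2%). FL2 was the highest FL rat in 16, FL5 in 6 and FL12 in 1, against 22.6%, 36.4% and 41.1% of all genes. Kdelr3, a receptor that returns chaperones from the Golgi apparatus to the ER, was the only DEG. It stood at 1.03, 0.92 and 0.87 FPKM (CL5, CL6, CL7) against 2.76, 4.84 and 4.68 FPKM (FL2, FL5, FL12). The lowest FL rat was thus far above the CL rats (1.97, SE 0.24, limma with BH-adjusted p = 0.00376, range 0.00117 to 0.0249 over the alternatives). Its paralogs Kdelr1 (0.59, adjusted p = 0.00996, range 0.00979 to 0.0599) and Kdelr2 (0.78, adjusted p = 0.0126, range 0.0112 to 0.0707) were also higher in limma with BH adjustment, and lost the call with median scaling (0.0599 and 0.0707), and Kdelr2 also without CL7 (0.0531). The other calls were Ssr1, Ssr2, Ssr4, Sec61b and Sec31a, with differences of 0.46 to 0.68, and these genes were named after their values were seen. Each of these 5 lost the call with both scalings and without CL6, CL7 or FL5, and some also without CL5, FL2 or FL12. Sec61a1, the pore of the translocon, was the most abundant gene at 52.3 to 63.7 FPKM in the CL rats and 68.3 to 91.2 FPKM in the FL rats (0.48, limma with BH-adjusted p = 0.0576, and 0.0435 without FL12, within a range of 0.0435 to 0.340).

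Stellate cells and macrophages secrete matrix and lysosomal proteins. Of 9 stellate cell or myofibroblast-like markers, 6 were higher in the FL group (limma with BH adjustment), 5 of them under every alternative, and Acta2, Tagln and Lrat (-0.07) were not called. The summed level of the 9 went from 80.2 to 86.0 FPKM in the CL rats to 203 FPKM in FL2, 545 in FL5 and 498 in FL12. The most abundant was Col3a1, at 46.5 to 51.8 FPKM in the CL rats and 140, 342 and 339 FPKM (FL2, FL5, FL12). Of 10 macrophage-like markers, 7 were higher, against 16.9% of all genes tested, and each kept the call under every alternative. The sums of the 10 were 97.6 to 101 FPKM in the CL rats and 253 to 372 FPKM in the FL rats. Gpnmb, with the highest mean over all 6 rats, went from 3.65 to 4.25 FPKM to 64.7 to 144 FPKM. In the CL rats the most abundant was Clec4f, which was not called (43.2 to 49.9 FPKM, and 66.6, 57.4 and 26.3 FPKM for FL2, FL5, FL12, difference -0.02). None of these markers was listed at 0 in any rat, and their part in the levels of the translocation genes was not tested.

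The list of ATF4 and CHOP transcription factors and stress targets had 5 of 18 tested higher and 0 lower in limma with BH adjustment. It holds transcription factors, Atf5 among them, as well as stress targets. Of all genes tested, 16.9% were higher, 1.94% were lower and 9.29% were higher DEGs. The median of these 18 genes was 0.70, which is 0.41 above that of all genes. In FL12 their median difference from the CL mean was 1.08, against 0.54 in FL5 and 0.24 in FL2, and FL12 was the highest FL rat in 13 of 18 (41.1% of all genes). That count was 13 with both scalings. The DEGs were Fgf21, Vldlr, Slc7a5 and Bcl2l11, and the other call was Txnip (0.55), which lost it with both scalings and without any rat but FL2. With median scaling 2 of the 18 were higher and with quantile normalization 0.

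Fgf21, a hormone that the liver releases under fasting and stress, stood at 4.65, 1.86 and 3.11 FPKM (CL5, CL6, CL7) against 11.4, 5.01 and 17.8 FPKM (FL2, FL5, FL12). FL12 and FL2 were well above the CL rats, and FL5 was just above CL5. The difference was 1.71 (SE 0.47, limma with BH-adjusted p = 0.0412, higher in 3 of 3 FL rats), with a range of 0.0252 to 0.126 over the alternatives. The call was lost with both scalings (0.0892 and 0.125), without the filter (0.126), without trend (0.0782) and with a robust prior (0.0509), as well as without CL5 (0.0523), CL6 (0.115), CL7 (0.114), FL2 (0.0826) or FL12 (0.109). Vldlr, a lipoprotein receptor, stood at 0.29 to 0.44 FPKM in the CL rats and at 0.80, 1.51 and 2.06 FPKM (FL2, FL5, FL12) (1.68, SE 0.35, limma with BH-adjusted p = 0.0164, range 0.00518 to 0.0664). It lost the call with quantile normalization (0.0594), without the filter (0.0576) and without CL5 (0.0522), CL7 (0.0664) or FL5 (0.0626).

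Slc7a5, the transporter of large neutral amino acids, stood at 0.910 ± 0.115 FPKM in the CL rats (mean ± SD, n = 3) and at 1.72, 1.82 and 5.40 FPKM (FL2, FL5, FL12). FL12 was the highest rat by far, and FL2 and FL5 were also above every CL rat (1.41, SE 0.41, limma with BH-adjusted p = 0.0469, range 0.0325 to 0.191). It lost the call with a pseudocount of 1, without the filter, without trend and with either scaling, as well as without CL5 (0.1001), CL6 (0.103), CL7 (0.147) or FL5 (0.0688). Slc3a2, the heavy chain that pairs with Slc7a5 (named after its values were seen), stood at 50.3 FPKM in FL12 and at 19.6 to 25.7 FPKM in the other rats. Bcl2l11 (BIM), a cell death gene induced by CHOP, stood at 1.18 to 1.38 FPKM in the CL rats and at 2.16, 2.79 and 3.26 FPKM (FL2, FL5, FL12) (1.02, SE 0.19, limma with BH-adjusted p = 0.0126, range 0.00699 to 0.0647), and lost the call with quantile normalization (0.0647) and without CL7 (0.0549). Atf5, a transcription factor of the same family as ATF4, was the most abundant gene of the list at 319 to 377 FPKM in the CL rats and at 347, 144 and 426 FPKM (FL2, FL5, FL12). FL5 alone was low, and the difference of -0.31 (limma with BH-adjusted p = 0.583) was 0.16 without it.

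Enzymes of serine, one-carbon and proline synthesis, which ATF4 turns on together with Asns, had the highest median of the 8 pathway lists (1.18, or 0.89 above all genes). In limma with BH adjustment 3 of 8 tested were higher and 0 lower, against 16.9% and 1.94% of all genes tested. All 3 were DEGs, against 9.29% of all genes tested that were higher DEGs. With median scaling 3 of the 8 were higher, and with quantile normalization 1. Pck2, the mitochondrial phosphoenolpyruvate carboxykinase, stood at 1.79, 1.52 and 1.52 FPKM (CL5, CL6, CL7) against 5.71, 3.59 and 3.84 FPKM (FL2, FL5, FL12). Every FL rat was higher than every CL rat (1.36, SE 0.20, limma with BH-adjusted p = 0.00603, range 0.00418 to 0.0492). Mthfd2, a mitochondrial folate enzyme, stood at 0.25 to 0.53 FPKM in the CL rats and at 1.34, 1.04 and 3.20 FPKM (FL2, FL5, FL12) (1.85, SE 0.42, limma with BH-adjusted p = 0.0229, range 0.0226 to 0.105). Pycr1, which makes proline, stood at 0.51 to 1.21 FPKM in the CL rats and at 4.11, 2.72 and 1.78 FPKM (FL2, FL5, FL12) (1.82, SE 0.39, limma with BH-adjusted p = 0.0176, range 0.0154 to 0.0903). Both lost the call with quantile normalization (0.105 and 0.0903) and without the filter (0.0778 and 0.0682). Without 1 rat, Mthfd2 lost it for CL6 (0.0594) and CL7 (0.0855), and Pycr1 for CL5 (0.0610), CL7 (0.0700) and FL5 (0.0607).

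Phgdh and Psat1, the first enzymes of serine synthesis, were named after their values were seen because their order of rats was close to that of Asns. Phgdh stood at 0.79, 3.05 and 1.11 FPKM (CL5, CL6, CL7) against 5.54, 2.36 and 15.3 FPKM (FL2, FL5, FL12). Psat1 stood at 0.43, 2.85 and 0.72 FPKM in the CL rats, and at 1.12, 1.09 and 7 FPKM (FL2, FL5, FL12). Like Asns, both were highest in FL12 and higher in CL6 than in FL5 and in the other CL rats. Neither was called (limma with BH-adjusted p = 0.0779 and 0.409), although Phgdh reached 0.0496 without FL5, within a range of 0.0496 to 0.208. Cth, which makes cysteine, was the most abundant gene of the list, at 79.2 to 94.7 FPKM in the CL rats and at 77.6, 125 and 70.4 FPKM (FL2, FL5, FL12) (0.02, limma with BH-adjusted p = 0.951). Its difference was -0.04 without CL6 and -0.23 without FL5.

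The 18 cytosolic aminoacyl-tRNA synthetases, many of which are known ATF4 targets, were mostly highest in FL12. It was the highest FL rat in 14 of the 18 (41.1% of all genes), and higher than every CL rat in 16 (62.5% of all genes), whereas FL2 and FL5 were each above every CL rat in 6 (49.2% and 60.9% of all genes) and below every CL rat in 7 (16.7% and 11.9%). With median scaling FL2 was below every CL rat in 12 and FL5 in 11. Their median difference from the CL mean was -0.10 in FL2, 0.07 in FL5 and 0.51 in FL12. With median scaling it was -0.25 in FL2 and -0.18 in FL5, and with quantile normalization -0.21 and -0.17. With median scaling FL12 was highest in 12 and with quantile normalization in 13, with medians of 0.23 and 0.25. Between the groups 2 were higher (Qars and Wars) and 0 lower in limma with BH adjustment, against 16.9% and 1.94% of all genes, with a median of 0.21. With either scaling 0 were higher. Wars kept its call in 4 of 14 alternatives and lost it with median scaling (0.185), with quantile normalization (0.315) and without CL5 (0.0693), CL6 (0.104), CL7 (0.154), FL2 (0.0692) or FL5 (0.0975). Qars stood at 9.02 to 10.1 FPKM in the CL rats and at 13.9, 15.1 and 13.9 FPKM (FL2, FL5, FL12) (0.59, SE 0.11, limma with BH-adjusted p = 0.0112, range 0.00987 to 0.0556), and lost the call with median scaling (0.0555), quantile normalization (0.0556) and without CL7 (0.0512). Eprs, the most abundant, stood at 54.2 to 61.0 FPKM in the CL rats and at 84.5, 53.3 and 85.6 FPKM (FL2, FL5, FL12) (0.36, limma with BH-adjusted p = 0.213, and 0.0446 without FL5, within a range of 0.0446 to 0.701).

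The other marker lists describe the tissue in which these genes were measured. Of 10 hepatocyte-like markers, 0 were higher and 0 lower in limma with BH adjustment, with a median of -0.10 (-0.39 relative to all genes) and sums of 45061 to 47631 FPKM in the CL rats and 36981 to 38310 FPKM in the FL rats. All FL rats lay above all CL rats in 1 of the 10 and below them in 4, against 35.7% and 4.78% of all genes tested. The 5 neutrophil-like markers had 3 of 4 tested higher, with sums of 0.25 to 1.22 FPKM in the CL rats and of 4.83, 2.11 and 4.52 FPKM (FL2, FL5, FL12). S100a8 was the most abundant of them, and Mpo was listed at 0 in CL5, CL6, CL7 and FL5. The 5 markers of cycling cells had 2 higher, with sums of 2.39 to 4.56 FPKM in the CL rats and 4.04, 18.4 and 15.7 FPKM (FL2, FL5, FL12), led by Mki67. Endothelial-like markers had 2 of 5 higher (Stab2 and Vwf), with Kdr most abundant in the CL group and Lyve1 in the FL group. Lymphocyte-like markers had 0 of 4 higher, with Nkg7 most abundant in the CL group and Cd8a in the FL group, and cholangiocyte-like markers, led by Epcam, had 0 of 5. The 3 neutrophil-like, 2 cycling and 2 endothelial-like calls were each lost under at least 1 alternative, and 16.9% of all genes tested were called higher. The part of any of these cells in the levels of the stress response genes was not tested.

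Promoter windows of the 10 genes were searched for letters that factors of both responses are known to bind. RefSeq windows of the GRCr8 build, from 250 bases before to 50 bases after the start of a gene, were matched by symbol for all 10 genes. The searched letters, on both strands, were the ER stress element (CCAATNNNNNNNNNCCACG), which ATF6 and XBP1 are known to bind with NF-Y, a second such element (ATTGG and CCACG with 1 base between them) and the core of the CHOP-ATF4 element (TGATGNAA). The ER stress element was found in 22 of 33469 promoters (0.0657%) and in 3 of the 10 genes, Hspa5, Xbp1 and Hsp90b1, the last with a pair of matches. The second element was found in 17 promoters (0.0508%) and in 1 of the 10 genes, Herpud1, and the core in 1332 promoters (3.98%) and in 2, Trib3 and Herpud1. These 7 matches did not overlap each other. The sequences run 5′ to 3′ along the strand of the gene, with the matched letters in capitals, and all 7 are given to show which windows hold which letters. No test of matches against likeness over the rats was run. The coordinates below are those of the printed stretches, which include the bases in lower case on both sides of a match. The Hspa5 match began 43 bases before the start (chr3:38452968-38452996, plus strand), and the Xbp1 match 65 bases before it (chr14:84604553-84604581, plus strand). The Hsp90b1 matches began 176 bases (chr7:23012446-23012474, minus strand) and 72 bases (chr7:23012342-23012370, minus strand) before the start, the nearer one in reverse orientation. Herpud1 held the second element 124 bases before its start (chr19:10614812-10614840, minus strand) and the core, in reverse orientation, 184 bases before it (chr19:10614874-10614901, minus strand). Trib3 held the core 21 bases before its start, in reverse orientation (chr3:161275537-161275564, minus strand).
Hspa5, ER stress element: gttcaCCAATCGGAGGCCTCCACGacggg
Hsp90b1, ER stress element, far: caaacCCAATCGAAAGGAGCCACGcttcg
Hsp90b1, ER stress element, near: gagtgCGTGGTGAGGCACGATTGGtgggt
Xbp1, ER stress element: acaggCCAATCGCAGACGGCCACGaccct
Herpud1, second element: cgggcgctgATTGGGCCACGttgggcact
Herpud1, CHOP-ATF4 core: ccacggcgggTTGCATCAgcccgcaccc
Trib3, CHOP-ATF4 core: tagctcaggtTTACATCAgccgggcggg

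In the lists, the ER stress element was found in 5 of 22 windows of ER chaperones (Calr, Canx, Creld2, Dnajc3 and Ero1b), and the second element in 2 (Dnajb11 and Hyou1). The core of the CHOP-ATF4 element was found in 0 of these 22, but in 7 of 15 windows of aminoacyl-tRNA synthetases. It was also found in 4 of 19 windows of ATF4 and CHOP transcription factors and stress targets (Chac1, Fgf21, Nupr1 and Slc7a1). In serine, one-carbon and proline synthesis 2 of 8 windows held it (Pck2 and Pycr1). Eif2s2 and Ppp1r15b held it as well, and Derl3 held the ER stress element. Asns, Ddit3, Atf4, Dnajb9 and Pdia4 held none of these letters in their windows. A match describes the sequence and shows no binding.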

How the data were processed

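The reads had been trimmed with FASTX-Toolkit 0.0.13 and mapped with TopHat2, and the authors deposited FPKM with 2 decimals for each rat. Their notes name GRCh38, although the identifiers are rat ones of Ensembl, and no annotation release was given in the sources used here. Groups came from the labels, and 2 further columns of values that no sample carries were not used. Identical values above 0 made up 0.990% to 2.87% of the genes in each pair of rats, so no library was taken for a duplicate.

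FPKM are not counts, so log2(FPKM + 0.1) of FL and CL rats was compared with limma (lmFit, eBayes with trend) where the mean over the rats reached 0.1 FPKM, with Benjamini-Hochberg adjustment over all genes tested. A DEG had to differ at least 2-fold with an adjusted p under 0.05. Standard errors are the moderated ones of limma. The procedure was tested on simulated data. Alternatives were pseudocounts of 1 and 0.01, the filter dropped or raised to 1 FPKM, quantile normalization or median scaling, a robust prior or no trend in limma, the fold limit dropped, and each rat left out in turn. The levels of the lists in each FL rat under both scalings were added after the data were seen.

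The genes and lists were chosen with earlier results of these data known. Named genes were the 10 genes, of each pathway list its DEGs (at most 3 in each direction), its most abundant gene and that with the lowest adjusted p, of each marker list its most abundant gene, and for Hspa5, Atf4 and Ddit3 the 3 genes most alike. Others are named where a count or a pattern over the rats singled them out after their values were seen. Protein sequences were not used here. Versions were Python 3.11.15, numpy 2.4.6, pandas 2.3.3, matplotlib 3.10.9, limma 3.58.1 and R 4.3.3.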

Additional observations from a re-analysis of the deposited data

How the results depend on the processing

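No paired analysis was run, since the paper divided the rats at random into the groups and describes no pairs. The number 5 that CL5 and FL5 share names a different rat in each group. With 3 rats a group, a single rat can decide a call, and the number of reads behind the low values of Ddit3, Trib3 and Asns is unknown here. Of 140 refitted differences of the 10 genes, 116 kept their direction and their side of the threshold, 8 lost the call (all of Dnajb9), 2 gained one and 14 changed sign. With median scaling Hspa5 became -0.0271, Hsp90b1 -0.0372 and Atf4 -0.11, and Calr became -0.13, Vcp -0.22 and Cth -0.20, while Vcp was -0.029 with quantile normalization. Leaving out 1 rat gave ranges of -0.15 to 0.43 for Hspa5, -0.18 to 0.44 for Hsp90b1, -0.039 to 0.27 for Atf4, -0.24 to 0.13 for Herpud1, -0.14 to 0.78 for Trib3, -0.48 to 0.20 for Pdia4, -0.24 to 0.40 for Calr, -0.10 to 0.12 for Vcp, -0.62 to 0.16 for Atf5 and -0.23 to 0.18 for Cth. The 1 gene lower among the 10 was 0 with a pseudocount of 1, without the filter and without trend, and 0 to 1 without 1 rat. Without 1 rat, 0 to 1 of the 10 were higher, 0 to 1 were DEGs, 0 to 2 lay above and 1 to 2 below all CL rats, and with no fold limit 1 was a lower DEG. Of the pathway genes, 8 were higher without the filter, 6 with median scaling, 4 with quantile normalization, 10 without trend and 3 to 21 without 1 rat, and 0, 3, 2, 0 and 0 to 1 were lower. Their higher DEGs numbered 4 with a pseudocount of 1, 3 without the filter, 5 with median scaling, 1 with quantile normalization, 20 with no fold limit (and 1 lower) and 2 to 11 without 1 rat. With median scaling 16 lay above and 11 below all CL rats, with quantile normalization 24 and 11, and without 1 rat 7 to 17 lay below. Of all genes, 1544 were higher and 172 lower without the filter, 1302 and 532 with median scaling, 778 and 536 with quantile normalization, and 938 to 3198 and 121 to 338 without 1 rat. All higher DEGs numbered 462 with a pseudocount of 1, 846 without the filter, 854 at a mean of at least 1 FPKM, 824 with median scaling, 453 with quantile normalization, 2518 with no fold limit and 740 to 1831 without 1 rat, and the lower ones 72 with a pseudocount of 1, 78 without the filter, 231 with quantile normalization, 288 with no fold limit and 81 to 160 without 1 rat. The cause of these shifts was not tested.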

Other observations

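FL2 was also the highest rat in most of the acute phase genes looked at, which the liver makes under inflammatory signals. Of 13 such genes, chosen after the values of the fibrinogen chain Fgb had been seen, 12 were highest in FL2 and 1 (Crp) in CL7. Fgb is among the 12, so the count in part repeats the value that prompted it. FL2 was the highest of the FL rats in 22.6% of all genes tested, a share that leaves the CL rats out. The fibrinogen chains Fga, Fgb and Fgg stood at 2.23, 2.21 and 2.13 times the CL mean in FL2, and at 0.856, 0.846 and 0.843 times in FL5 and 0.801, 0.748 and 0.749 times in FL12. Orm1 stood at 166, 254 and 245 FPKM (CL5, CL6, CL7) against 3920, 296 and 895 FPKM (FL2, FL5, FL12). Socs3, the feedback inhibitor of cytokine signalling, was 15.1 FPKM in FL2 and 1.19 to 3.42 FPKM in the other rats. In limma with BH adjustment, Lcn2 (5.68, adjusted p = 0.0152) and A2m (2.81, adjusted p = 0.00789) were higher in the FL group, and the other 11 were not called. Of all genes tested, 16.9% were called higher. Of the 13 genes, 7 were higher and 6 lower in FL12 than in FL5. No relation between these genes and the ER chaperones was tested.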
